A study of Mus musculus with 11 samples.

Results

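The genes described here are 7 proneural and early neuron genes of the mouse: Neurog1, Neurog2, Neurog3, Gadd45g, Neurod1, Neurod4 and Elavl3. They were taken by name, as every probe set of the array that carried the symbol of 1 of these genes and no other, which gave 14 probe sets for 7 of the 18193 genes with such a probe set. For each gene the probe set of highest mean over all arrays led. RNA of neural tissue of C57BL/6 embryos was measured on 11 arrays, from embryonic day 9.5 (E9.5) in 3 samples of closed neural tube and 3 of open neuroepithelium, and from E8.5 in 2 samples of closed neural tube and 3 of open neuroepithelium. All embryos were of the same inbred strain with no treatment other than the enzymes used to free the tissue, pancreatin at 2.5% and trypsin at 0.5%. These acted for 8 min at E9.5 and 5 min at E8.5, so that enzyme time cannot be told apart from stage in comparisons of the stages. The open tissue was the neural plate caudal to the point where the tube was still unsealed, and the closed tissue was a stretch of sealed tube starting just rostral to that point, so that closure cannot be told apart from the position along the body axis in comparisons of the regions, and that position may also change with stage. The notochord came off with the tissue, the 111 embryos used were pooled litter by litter, and 1 further closed E8.5 array had been removed by the authors for its quality.

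Values are log2 signal. A difference is the log2 value of closed less that of open tissue, or of E9.5 less E8.5, and its standard error (SE) comes from a linear model over the 4 groups. A gene was tested where its leading probe set had a mean over the arrays of at least 4.30, the 40th percentile of all probe sets, and was called where its p adjusted over all 13338 genes tested was under 0.05. Of the 7 genes, Neurog2, Neurog3, Gadd45g and Elavl3 passed the filter, with Neurog3 nearest above it (mean 4.85) and Neurog1 nearest below it (mean 4.23). Neurog1, Neurod1 and Neurod4 (means 3.97 and 3.87 for the last pair) lay below it, and were fitted only without the filter. RNA quality was uneven: the signal near the 3-prime end of control transcripts exceeded that near the 5-prime end by 2.20 and 2.48 log2 units on open E9.5 arrays 1 and 2, and by 1.14 to 1.82 on the other 9 arrays. As markers of the labelled tissue, the 14 neural progenitor genes all passed the filter, with Sox2 at 11.34 to 11.63 in closed E9.5, 10.99 to 11.15 in open E9.5, 11.33 to 11.41 in closed E8.5 and 11.23 to 11.30 in open E8.5 tissue.

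Proneural genes encode basic helix-loop-helix (bHLH) transcription factors that pair with E proteins, bind the E-box sequence and commit dividing neuroepithelial cells to become neurons. The neurogenins Neurog1, Neurog2 and Neurog3 act first, and Neurod1 and Neurod4 follow as cells leave the cycle. Proneural factors also switch on Notch ligands, and Notch signalling in the neighbouring cells raises Hes repressors that keep those cells from differentiating. Gadd45g is a stress and cell cycle gene that is switched on in cells committing to neurogenesis, and Elavl3 encodes an RNA-binding protein (HuC) that is a classical mark of young neurons.

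The stretches around the start sites of the 4 genes that passed the filter are shown because E-boxes there are the letters that bHLH factors can bind. Each is the RefSeq promoter window of 300 bases (250 before the start site and 50 from it on, build GRCm38.p6), written 5′ to 3′ on the strand of the gene, with every E-box, CANNTG, in capitals.
Neurog2: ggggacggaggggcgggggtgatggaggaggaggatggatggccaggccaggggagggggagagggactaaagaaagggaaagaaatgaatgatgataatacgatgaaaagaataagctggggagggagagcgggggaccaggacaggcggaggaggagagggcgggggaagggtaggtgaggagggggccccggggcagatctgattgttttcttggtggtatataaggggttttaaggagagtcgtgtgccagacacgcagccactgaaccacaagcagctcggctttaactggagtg
Neurog3: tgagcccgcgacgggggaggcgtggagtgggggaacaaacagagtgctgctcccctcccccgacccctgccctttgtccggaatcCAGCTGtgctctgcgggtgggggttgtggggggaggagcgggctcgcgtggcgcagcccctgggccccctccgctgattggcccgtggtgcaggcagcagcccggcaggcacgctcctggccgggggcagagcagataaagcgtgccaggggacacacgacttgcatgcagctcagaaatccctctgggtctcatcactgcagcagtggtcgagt
Gadd45g: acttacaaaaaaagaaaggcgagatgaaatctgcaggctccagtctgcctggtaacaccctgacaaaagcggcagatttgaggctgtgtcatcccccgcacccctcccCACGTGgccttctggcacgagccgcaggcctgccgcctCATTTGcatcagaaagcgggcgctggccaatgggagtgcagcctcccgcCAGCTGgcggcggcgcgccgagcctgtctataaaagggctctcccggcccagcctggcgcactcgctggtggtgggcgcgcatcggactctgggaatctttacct
Elavl3: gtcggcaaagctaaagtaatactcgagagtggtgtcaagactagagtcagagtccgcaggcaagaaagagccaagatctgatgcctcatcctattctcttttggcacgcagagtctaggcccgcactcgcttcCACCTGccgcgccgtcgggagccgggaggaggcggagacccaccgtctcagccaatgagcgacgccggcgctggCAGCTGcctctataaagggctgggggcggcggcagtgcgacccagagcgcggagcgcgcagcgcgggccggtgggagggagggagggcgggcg
These windows lie at chr3:127632886-127633185 (Neurog2, plus strand), chr10:62132840-62133139 (Neurog3, plus strand), chr13:51846425-51846724 (Gadd45g, plus strand) and chr9:22051974-22052273 (Elavl3, minus strand). The Neurog2 window held no E-box, that of Neurog3 held 1, that of Elavl3 held 2 and that of Gadd45g held 3. All 7 genes had a window, 8 in all because Neurod4 had 2. An E-box was found for 6 of the 7 genes and in 6 of the 8 windows, while 72.3% of all 32851 promoter windows of this length held one. The form CAGCTG reads the same on both strands and is itself an E-box. It was present for Neurog3, Gadd45g, Elavl3 and Neurod4, in 4 of the 8 windows, and in 16.3% of all windows. Its first base was at −55 from the start site in the Gadd45g window, at −43 in that of Elavl3 and at −165 in that of Neurog3. The N-box of Hes repressors (CACNAG, or CTNGTG on the other strand) was found for Neurog2, Gadd45g, Neurod1 and Neurod4. It was in 5 of the 8 windows, against 42.5% of all windows. An RBPJ site (TGGGAA, or TTCCCA on the other strand) was found for Gadd45g alone of the 7, in 1 of the 8 windows, against 25.6% of all windows. These matches describe the letters only.

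Neurog2, the neurogenin of the spinal cord and dorsal root ganglia, was much higher in closed than in open tissue at both stages. Its signal was 9.90, 9.64 and 9.46 in closed E9.5 tissue and 6.840, 6.999 and 6.820 in open E9.5 tissue, and it was 9.73 and 9.36 in closed E8.5 tissue and 7.99, 7.98 and 7.64 in open E8.5 tissue. Every closed array lay above every open array, and the open E9.5 arrays were the lowest of all. At E9.5 the difference was 2.78 (SE 0.16, adjusted p = 4.25e-07), a 6.88-fold higher signal, and at E8.5 it was 1.68 (SE 0.17, adjusted p = 6.56e-05), or 3.20-fold. Both calls held under each of the 27 alternative settings tried. In these bulk samples fewer cells of a type and less RNA per cell cannot be told apart.

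Between the stages, Neurog2 fell in open tissue by 0.98 (SE 0.16, adjusted p = 0.00319), with no overlap between the 3 open arrays of E9.5 and the 3 of E8.5. Without open E9.5 arrays 1 and 2, whose 3-prime over 5-prime signal was the highest, the fall was 1.05 with an adjusted p of 0.0654, where the single array left is assumed to vary like the other groups. With that signal as a covariate, the fall was 1.14 (adjusted p = 0.000646). In closed tissue the difference of the stages was 0.12 (SE 0.17, 95% interval −0.26 to 0.50, adjusted p = 0.991). From high to low, the group means were 9.67 ± 0.22 (SD, n = 3) in closed E9.5, 9.54 ± 0.26 (n = 2) in closed E8.5, 7.87 ± 0.20 (n = 3) in open E8.5 and 6.89 ± 0.10 (n = 3) in open E9.5 tissue, and of these neighbours only the closed groups did not differ beyond their spread.

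**Figure D1:**
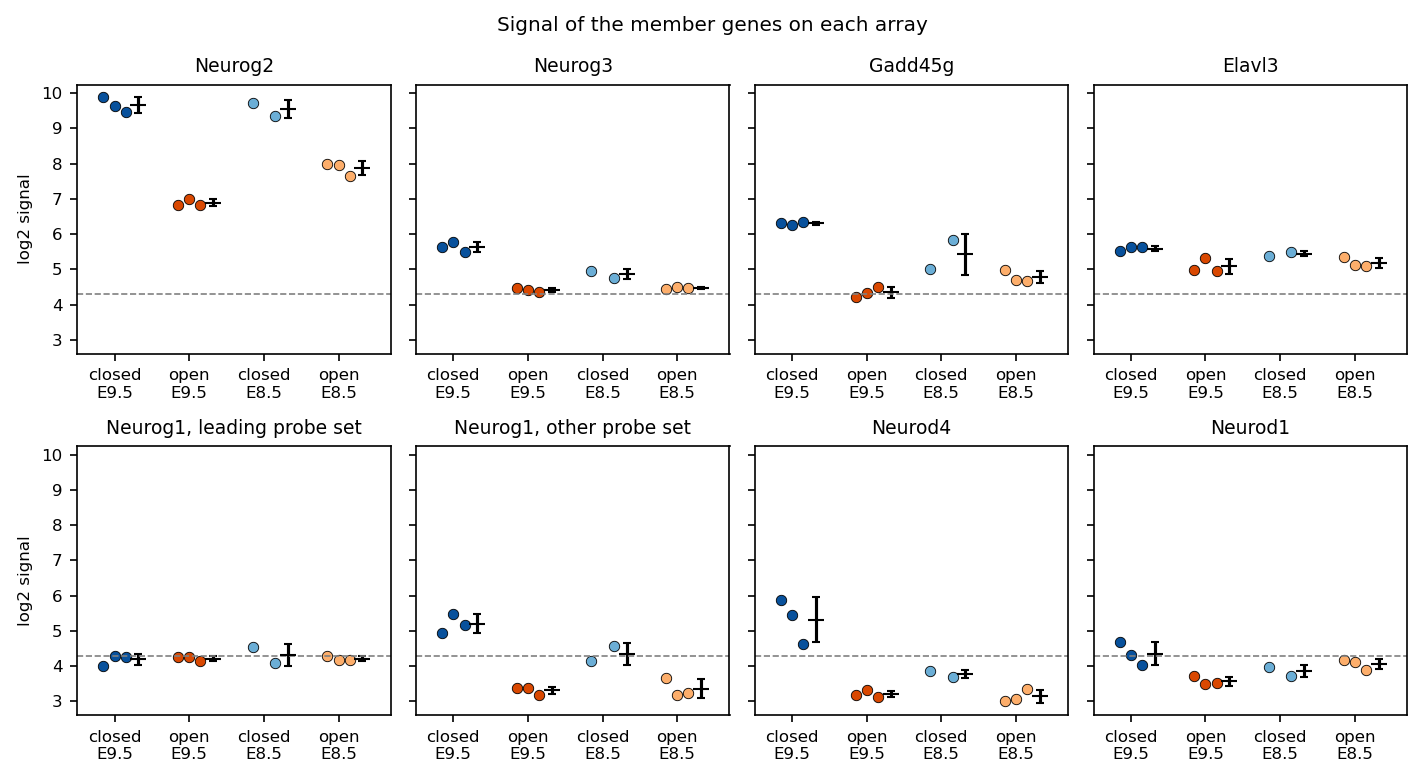
Log2 signal of the 7 genes on each of the 11 arrays (points), with the group mean and SD (bar beside the points), for the leading probe sets and for the other probe set of Neurog1. The dashed line is the filter of 4.30. Neurog2 was at 9.36 to 9.90 on the closed arrays and at 6.82 to 7.99 on the open arrays.

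Neurog3, better known for endocrine cells of the gut and pancreas, showed its highest signal in closed E9.5 tissue. It was 5.63, 5.78 and 5.51 in closed E9.5 tissue and 4.48, 4.43 and 4.36 in open E9.5 tissue, against 4.96 and 4.77 in closed E8.5 tissue and 4.45, 4.50 and 4.48 in open E8.5 tissue. The open arrays of both stages lay within 4.36 to 4.50, just above the filter, and every closed array lay above them. The difference of the regions was 1.21 (SE 0.10, adjusted p = 1.05e-05) at E9.5. At E8.5 it was 0.39 (SE 0.11, 95% interval 0.14 to 0.63, adjusted p = 0.0646), which missed the threshold. It passed after quantile normalization (adjusted p = 0.0359), with arrays centred on their median (adjusted p = 0.0349) and with the replicate number as a random block (adjusted p = 0.0172), and missed it with that number as a fixed block (adjusted p = 0.114).

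In closed tissue Neurog3 was 0.78 higher at E9.5 than at E8.5 (SE 0.11, adjusted p = 0.00264), and the call was lost in a fit of the closed arrays alone (adjusted p = 0.0614). In open tissue its stages differed by −0.05 (SE 0.10, 95% interval −0.27 to 0.17). Of the neighbours in the order of group means, 5.64 in closed E9.5, 4.86 in closed E8.5, 4.48 in open E8.5 and 4.42 in open E9.5 tissue, closed E9.5 differed from closed E8.5 and the others did not pass the test. A second Neurog3 probe set, of mean 3.65, was below the filter on all 11 arrays and was 3.63 in closed E9.5, 3.65 in open E9.5, 3.64 in closed E8.5 and 3.67 in open E8.5 tissue, so that the probe sets of this gene disagree.

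Neurog1, the neurogenin that acts beside Neurog2 in spinal and sensory progenitors, depended on the probe set read. Its leading probe set was near background and flat, with group means of 4.19 in closed E9.5, 4.22 in open E9.5, 4.32 in closed E8.5 and 4.22 in open E8.5 tissue. The other probe set, of mean 4.03, was 4.95, 5.49 and 5.16 in closed E9.5 and 3.37, 3.37 and 3.19 in open E9.5 tissue, and 4.13 and 4.56 in closed E8.5 and 3.66, 3.19 and 3.25 in open E8.5 tissue. All closed arrays exceeded all open arrays, and only the closed E9.5 arrays and 1 closed E8.5 array were above the filter. Fitted over all 34945 probe sets one by one without the filter, this probe set differed between the regions by 1.89 at E9.5 (SE 0.17, adjusted p = 3.22e-05) and by 0.98 at E8.5 (SE 0.19, adjusted p = 0.0112), where 3.97% and 3.34% of all probe sets were called. Between the stages in closed tissue it differed by 0.86 (adjusted p = 0.065). Where the open arrays sit at background, the size of such a difference depends on that background.

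Gadd45g was high and even in closed E9.5 tissue. It was 6.32, 6.25 and 6.34 there and 4.20, 4.34 and 4.51 in open E9.5 tissue, against 5.02 and 5.83 in closed E8.5 tissue and 4.97, 4.70 and 4.67 in open E8.5 tissue. The regions did not overlap at either stage, but at E8.5 the lower closed array, at 5.02, was close to the highest open one, at 4.97. At E9.5 the difference was 1.95 (SE 0.18, adjusted p = 2.36e-05), a 3.86-fold higher signal, called under all 26 alternatives that measured it. At E8.5 it was 0.65 (SE 0.20, adjusted p = 0.0891) and rested on which closed array was kept: it was 1.05 (adjusted p = 0.0026) without closed E8.5 array 1 and 0.24 (adjusted p = 0.573) without array 2. It also passed the threshold with the 3-prime over 5-prime signal added as a covariate (0.72, adjusted p = 0.0141) and with the replicate number as a random block (0.62, adjusted p = 0.0459), and missed it with a fixed block (0.59, adjusted p = 0.122).

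The rise of Gadd45g between the stages in closed tissue, 0.88 (SE 0.20, adjusted p = 0.0439), was called in 7 of 26 alternatives. It was 0.47 without closed E8.5 array 1, and 0.86 (adjusted p = 0.0823) with the replicate number, shared across stages, as a block. In open tissue the difference was −0.43 (SE 0.18, 95% interval −0.82 to −0.03, adjusted p = 0.243), with the 3 E9.5 arrays below the 3 E8.5 arrays. The closed E8.5 arrays also differed in RNA quality, with a 3-prime over 5-prime signal of 1.82 on array 1 and 1.18 on array 2. They differed in somite markers too: the linear signal of 6 somite and presomitic genes summed to 198 on array 1 and 525 on array 2. That sum was 169 to 180 in closed E9.5 tissue, 162 to 243 in open E9.5 tissue and 219 to 275 in open E8.5 tissue. Foxc2 and Twist1 had means below the filter in each of these groups, and Tbx6 in closed E9.5 tissue, so part of these sums is background. The part of the somite markers in the Gadd45g values was not tested. Of the relatives of Gadd45g, Gadd45a was higher in closed tissue by 1.75 at E9.5 (SE 0.23, adjusted p = 0.000365) and by 1.64 at E8.5 (SE 0.25, adjusted p = 0.00158), while Gadd45b differed by 0.20 (adjusted p = 0.336) and 0.15 (adjusted p = 0.726).

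Neurod4 and Neurod1, the bHLH factors of newly born neurons, had their highest signal in closed E9.5 tissue. Neurod4 was 5.87, 5.44 and 4.63 in closed E9.5 tissue and 3.19, 3.31 and 3.13 in open E9.5 tissue, against 3.851 and 3.698 in closed E8.5 tissue and 3.01, 3.07 and 3.35 in open E8.5 tissue. The 3 closed E9.5 arrays were the only ones above the filter, and array 3 was clearly lower than the other 2. Without the filter, its regions differed by 2.10 at E9.5 (SE 0.23, adjusted p = 8.22e-05) and by 0.63 at E8.5 (SE 0.26, adjusted p = 0.303), and in closed tissue its stages differed by 1.54 (SE 0.26, adjusted p = 0.00753). Its leading probe set is of a type that can match several transcripts. A second one, below the filter on all 11 arrays, differed by 1.08 between the regions at E9.5 (adjusted p = 0.000297), and the remaining one was flat (3.25 in closed E9.5 and 3.17 in open E9.5 tissue).

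Neurod1 was 4.68, 4.33 and 4.03 in closed E9.5 tissue and 3.72, 3.48 and 3.52 in open E9.5 tissue, and 3.97 and 3.73 in closed E8.5 tissue and 4.17, 4.13 and 3.89 in open E8.5 tissue. At E9.5 the regions did not overlap, whereas at E8.5 they did, and only 2 of the 11 arrays were above the filter. Without the filter the difference at E9.5 was 0.77 (SE 0.15, adjusted p = 0.00681), and that at E8.5 was −0.21 (SE 0.17, adjusted p = 0.818). The other Neurod1 probe set differed by 0.57 at E9.5 (adjusted p = 0.0284, probe sets one by one). At E8.5 that probe set went the other way without being called, with closed arrays at 3.64 and 3.65 and open arrays at 3.72 to 3.97. Between the stages the leading probe set did not pass the test, without the filter (0.49, adjusted p = 0.263, in closed tissue and −0.49, adjusted p = 0.12, in open tissue).

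Elavl3, the neuronal product at the end of this series, had the smallest difference of the regions at E9.5 among the 4 genes that passed the filter. It was 5.51, 5.63 and 5.64 in closed E9.5 tissue and 4.97, 5.34 and 4.96 in open E9.5 tissue, against 5.39 and 5.49 in closed E8.5 tissue and 5.34, 5.11 and 5.11 in open E8.5 tissue. The regions did not overlap at either stage, with the lowest closed array at 5.51 and the highest open one at 5.34 at E9.5, and at 5.39 and 5.34 at E8.5. The difference at E9.5 was 0.50 (SE 0.12, adjusted p = 0.0241), called in 17 of 26 alternatives. It was not called with probe sets one by one without the filter (adjusted p = 0.0572) or with the limit of 1 on the absolute difference. That call was lost without open E9.5 array 1 (adjusted p = 0.11) or 3 (0.0629), without closed E9.5 array 2 (0.0867) or 3 (0.0903), without open E9.5 arrays 1 and 2 together (0.0518), in a fit of the E9.5 arrays alone (0.0609) and with the mean of its 3 probe sets (0.30, adjusted p = 0.0647). At E8.5 the difference was 0.26 (SE 0.14, adjusted p = 0.463), and between the stages it was 0.15 in closed tissue (95% interval −0.15 to 0.45) and −0.10 in open tissue (95% interval −0.37 to 0.17).

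Its other probe sets were flatter still, at 4.86 in closed E9.5 and 4.68 in open E9.5 tissue for the one above the filter, and at 3.48 in closed E9.5 and 3.27 in open E9.5 tissue for the one below it, and neither passed the test. Among its relatives, Elavl4 (HuD), made by young neurons, was higher in closed tissue by 1.09 at E9.5 (SE 0.15, adjusted p = 0.000449) and by 0.71 at E8.5 (SE 0.16, adjusted p = 0.0187, lost without any 1 of 4 E8.5 arrays, adjusted p up to 0.122). Elavl1 (HuR), which is made in most cells, differed by −0.17 at E9.5 (adjusted p = 0.695) and −0.15 at E8.5 (adjusted p = 0.931), and Elavl2 (HuB) by 0.16 (adjusted p = 0.713) and 0.09 (adjusted p = 0.968).

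**Figure D2:**
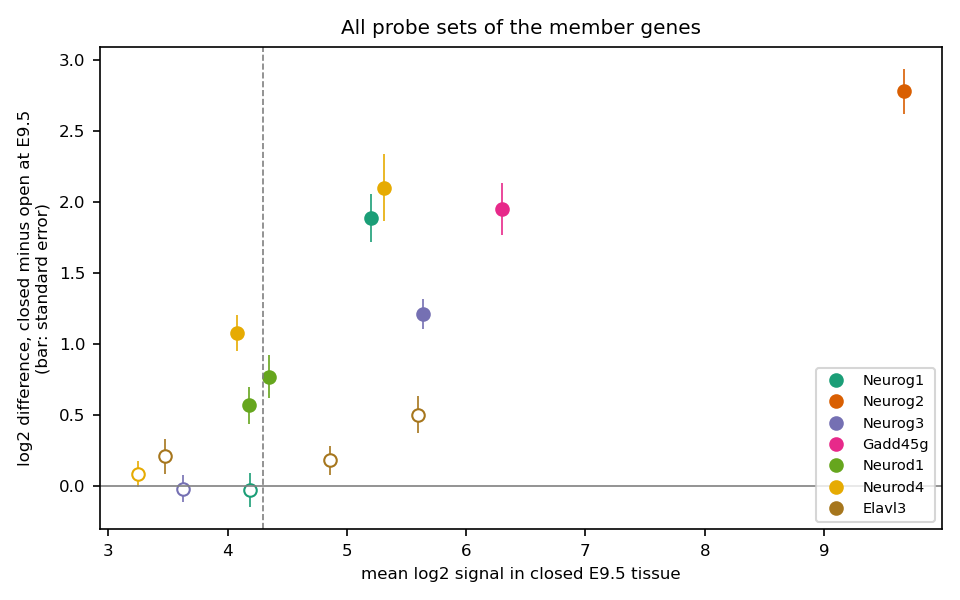
Difference of closed minus open tissue at E9.5 (log2, bar: SE) of all 14 probe sets of the 7 genes against their mean log2 signal in closed E9.5 tissue, fitted one by one without the filter. Filled points passed the test, 8 of the 14, beside 3.97% of all probe sets, and the dashed line is the filter of 4.30. Probe sets of 1 gene can differ, as for Neurog1 at 1.89 and −0.03.

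Counted together, 4 of the 4 tested genes at E9.5 passed the test as higher in closed tissue, where 2.75% of all tested genes were called higher and 8.54% were called in either direction. At E8.5, 1 of 4 was higher (3.79% of all genes higher, 7.17% in either direction). In closed tissue 2 of 4 were higher at E9.5 than at E8.5 (0.96% higher, 2.42% either way), and in open tissue 1 of 4 was lower (1.42% lower, 5.02% either way). Fitted without the filter, 6 of the 7 genes were higher in closed tissue at E9.5, all but Neurog1, against 6.18% of 18193 genes called. Without the filter 1 of 7 was called at E8.5 (5.29% of all genes), 3 of 7 between the stages in closed tissue (1.85%) and 1 of 7 in open tissue (3.68%). The median difference of the 4 tested genes was 1.58 for the regions at E9.5 and 0.52 at E8.5, beside −0.01 and 0.00 over all tested genes. In all 4 tested genes every closed array lay above every open array at E9.5, as in 8.82% of all tested genes, and at E8.5, as in 14.9%. In closed tissue the E9.5 arrays lay above the E8.5 arrays in 3 of the 4 (7.86% of all), and in open tissue below them in 2 of the 4 (9.75% of all). A gene that passes the filter through its closed arrays alone had to differ, so these counts describe the genes and support nothing further. The comparisons share arrays, and each gene's values stand side by side for that reason.

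**Figure D3:**
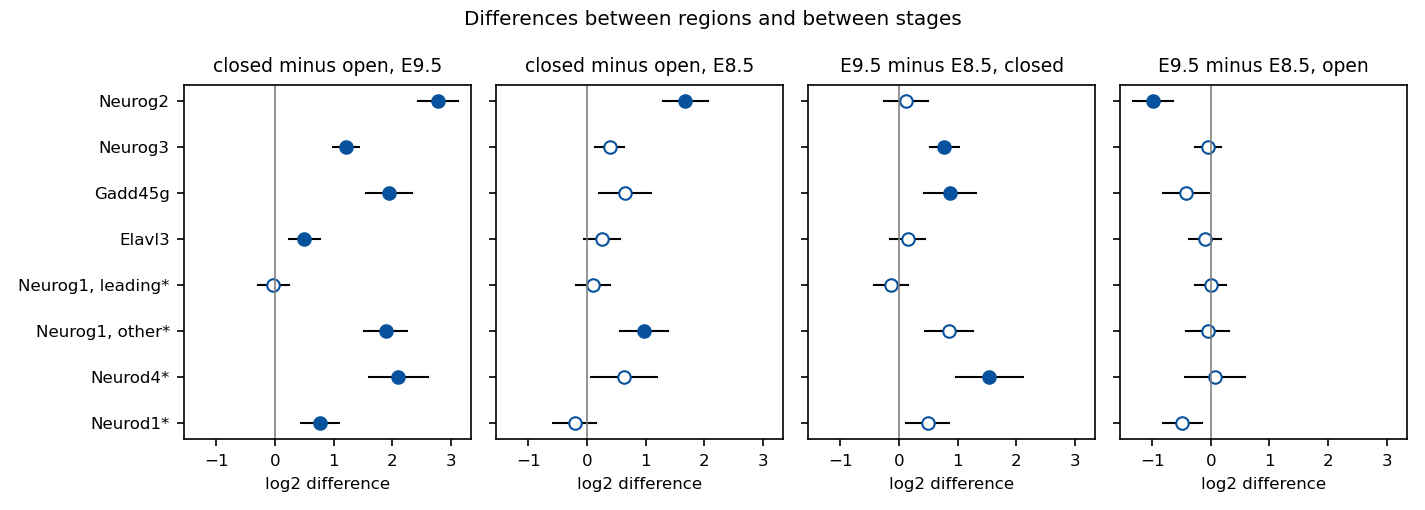
Log2 differences (points) with 95% intervals (lines) of closed minus open tissue at E9.5 and E8.5, and of E9.5 minus E8.5 in closed and open tissue. Filled points passed the test, and an asterisk marks values fitted without the filter. At E9.5 Neurog2 stands at 2.78, Gadd45g at 1.95, Neurog3 at 1.21 and Elavl3 at 0.50.

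Whether the difference of the regions itself changed between the stages was tested as an interaction. It was larger at E9.5 than at E8.5 by 1.10 for Neurog2 (SE 0.23, adjusted p = 0.0468), by 0.83 for Neurog3 (SE 0.15, adjusted p = 0.0230) and by 1.30 for Gadd45g (SE 0.27, adjusted p = 0.0425), and for Elavl3 the value was 0.24 (SE 0.18, adjusted p = 0.748). So 3 of the 4 tested genes passed, beside 0.3% of all genes called in this direction and 1.25% called either way. These calls sat near the threshold. When arrays were left out singly, Neurog2 kept its call in 1 of 11 fits (adjusted p up to 0.208), Neurog3 in 4 of 11 (up to 0.101) and Gadd45g in 2 of 11 (up to 0.125). The values kept their sign throughout, within 0.92 to 1.29 for Neurog2, 0.73 to 0.93 for Neurog3 and 0.90 to 1.71 for Gadd45g. Without the filter, where 0.962% of all genes were called, Neurod4 had an interaction of 1.47 (SE 0.35, adjusted p = 0.0905) and Neurod1 one of 0.98 (SE 0.23, adjusted p = 0.0771).

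Over all 13338 tested genes, 367 were higher and 772 lower in closed tissue at E9.5. At E8.5, 506 were higher and 451 lower. The counts of this and the following lists stand beside these. Of 16 other neural bHLH factors and E proteins, 10 were tested. At E9.5 closed tissue had 3 of them higher and 0 lower (4 higher and 1 lower, Hes6, with the replicate block): Olig2, a factor of motor neuron progenitors, by 3.95 (SE 0.28, adjusted p = 3.04e-06), Olig1 by 2.59 (SE 0.22, adjusted p = 1.27e-05) and Olig3, a factor of dorsal progenitors, by 1.43 (adjusted p = 0.0045). Olig2 was at 3.47 to 3.76 on the open arrays of E9.5 and Olig1 at 3.474 to 3.999, below the filter, so these sizes depend on the background. At E8.5, Olig2 and Olig1 were higher in closed tissue and Atoh1, the proneural factor of dorsal progenitors, was lower (−0.59, SE 0.15, adjusted p = 0.0354, lost without any 1 of 5 arrays, adjusted p up to 0.318). In open tissue Olig3 fell by 1.38 between the stages (SE 0.26, adjusted p = 0.0102), a call lost without open E8.5 array 1 or open E9.5 array 1 (adjusted p up to 0.0592). Neurod2, a later factor of the Neurod family, differed by 0.13 at E9.5 (adjusted p = 0.751), and Neurod6, Nhlh1, Nhlh2 and Ptf1a were below the filter. Bhlhe22 was not analysed here.

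Notch pathway genes, the partners of proneural factors in lateral inhibition, moved in both directions. All 20 listed genes were tested, and at E9.5, 3 were higher and 2 lower in closed tissue (367 and 772 of all 13338 tested genes). With the replicate block 4 were higher and 3 lower, with Lfng added above (0.47, adjusted p = 0.0256) and Jag1 below (−0.47, adjusted p = 0.0236). The 5 calls became 3 without closed E9.5 array 2 or 3, and 2 without open E9.5 arrays 1 and 2 together. Hes5, the Notch target of neural progenitors, was 11.33, 11.16 and 10.93 in closed E9.5 tissue and 9.20, 9.08 and 8.27 in open E9.5 tissue, a difference of 2.29 (SE 0.22, adjusted p = 3.71e-05). At E8.5 its difference was 1.37 (SE 0.25, adjusted p = 0.00454), and in open tissue it fell by 0.90 between the stages (SE 0.22, adjusted p = 0.0395, lost in 6 of 11 fits that left out 1 array, adjusted p up to 0.160). The order of its group means, closed E9.5, closed E8.5, open E8.5 and open E9.5, was that of Neurog2. Neither gene was called between the closed groups, so the order within that pair carries no weight. Dll1, a ligand switched on by neurogenins, was 9.041, 8.996 and 9.829 in closed E9.5 tissue and 8.59, 7.55 and 8.37 in open E9.5 tissue. Its difference was 1.12 (SE 0.30, adjusted p = 0.0432, lost in 7 of 11 fits that left out 1 array, adjusted p up to 0.172), and at E8.5 it was 0.80 (adjusted p = 0.277, and 0.92 with adjusted p = 0.0138 under the replicate block).

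Dll3, a ligand of presomitic mesoderm and nascent neurons, was lower in closed tissue, at −2.28 at E9.5 (SE 0.23, adjusted p = 5.18e-05) and −3.87 at E8.5 (SE 0.26, adjusted p = 2.22e-06). Hey1, a repressor of the Hes family, was also lower at E9.5 (−1.10, SE 0.17, adjusted p = 0.00129), and Hey2 was higher at E9.5 (0.81, SE 0.20, adjusted p = 0.0241, lost in 3 of 11 fits that left out 1 array, adjusted p up to 0.108) and at E8.5 (1.43, SE 0.22, adjusted p = 0.00162). At E8.5, 2 of the 20 genes were higher and 1 was lower (4 higher and 2 lower with the replicate block). Hes6, which relieves neurogenesis from Hes1, differed by −0.76 at E9.5 (adjusted p = 0.208) and −0.99 at E8.5 (adjusted p = 0.163), and passed the test with the replicate block (adjusted p = 0.00205 and 0.00246). Of the 4 Id genes, whose products tie up E proteins, Id3 was higher in closed tissue by 2.15 at E9.5 (SE 0.25, adjusted p = 0.000149) and by 2.34 at E8.5 (SE 0.28, adjusted p = 0.00021), and Id1, Id2 and Id4 did not pass (with the replicate block Id4 was also higher at E9.5, by 0.87 at an adjusted p of 0.000259, and Id2 lower at E8.5, −0.39 at an adjusted p of 0.026).

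Genes that act downstream of proneural factors were in part below the filter. Of 21 genes of the differentiation cascade 13 were tested, and 8 (Insm1, Ebf1, Ebf2, Ebf3, Myt1, St18, Eomes and Onecut1) lay below it. At E9.5 closed tissue had 2 of 13 higher and 0 lower (3 higher and 1 lower, Sox4, with the replicate block). They were Cxcr4, a chemokine receptor (1.85, SE 0.25, adjusted p = 0.000483), and Sstr2, a somatostatin receptor (0.75, SE 0.14, adjusted p = 0.00554). Cxcr4 was also higher at E8.5 (1.13, adjusted p = 0.0297, lost without open E8.5 array 1 or 3 or closed E8.5 array 2, adjusted p up to 0.254, and with the block 2 of 13 genes were higher and 1, Cdkn1c, lower). In closed tissue Cdkn1c, an inhibitor of the cell cycle, rose by 1.80 between the stages (SE 0.23, adjusted p = 0.0012), at 10.79, 10.88 and 11.05 in closed E9.5 and 8.83 and 9.39 in closed E8.5 tissue. Onecut2 rose by 0.71 (SE 0.16, adjusted p = 0.0423). That call was lost in 8 of 11 fits that left out 1 array, and with the replicate number, shared across stages, as a block (adjusted p = 0.0663). Sox11, a factor of neuronal maturation, rose by 0.80 in open tissue (SE 0.10, adjusted p = 0.000503).

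In closed tissue Neurog3 rose between the stages, and Gadd45g rose in a call kept in 7 of 26 alternatives. Over the same arrays several genes of postmitotic neurons fell. Of 24 genes 21 were tested, and 9 were lower and 0 higher in closed E9.5 than in closed E8.5 tissue. Over all 13338 tested genes, 195 were lower and 128 higher in this comparison. The median of the 21 was −0.45, beside −0.03 over all tested genes. The count of 9 became 4 without closed E8.5 array 2, and 4 without closed E9.5 array 2. Nefl, the light neurofilament chain, was 7.139, 6.613 and 6.9998 in closed E9.5 tissue and 8.78 and 8.59 in closed E8.5 tissue, and fell by 1.77 (SE 0.18, adjusted p = 0.000213). Stmn3, a regulator of microtubules, fell by 1.56 (SE 0.15, adjusted p = 0.000184), Nefm by 1.29 (adjusted p = 0.00442) and Scg3, of secretory granules, by 1.04 (adjusted p = 0.00257). Elavl4 was 0.61 in the same comparison (SE 0.16, adjusted p = 0.0907) and Tubb3, the tubulin of neurons, 0.33 (SE 0.30).

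In open tissue 5 of the 21 fell and 1 rose, while 189 fell and 481 rose among all 13338 tested genes. Stmn2 fell by 1.98 (SE 0.24, adjusted p = 0.000537), Nefl by 1.57 (SE 0.16, adjusted p = 0.000165), and Map2, a protein of dendrites, rose by 0.81 (SE 0.16, adjusted p = 0.0128, lost without open E8.5 array 1 or open E9.5 array 2, adjusted p up to 0.0546). With open E9.5 arrays 1 and 2 left out, 2 of the 21 were called. Between the regions at E9.5, 3 were higher and 2 lower in closed tissue, beside 367 and 772 of all 13338 tested genes. They were led by Elavl4 above and by Map2 below at −1.71 (SE 0.16, adjusted p = 2.96e-05). With the replicate block 3 were higher and 5 lower, the 3 added below being Stmn2 (−0.80), Gap43 (−0.69) and Crmp1 (−0.30). The 5 calls became 2 without closed E9.5 array 3, and 3 without closed E9.5 array 1, open E9.5 array 1 or 2, or open E8.5 array 1. At E8.5, Scg3 (1.35, SE 0.15, adjusted p = 0.000113) and Stmn3 (1.19, SE 0.15, adjusted p = 0.000371) were higher and Stmn2 was lower (−1.36, SE 0.27, adjusted p = 0.00778, lost without closed E8.5 array 2 at an adjusted p of 0.0628). The 4 calls at E8.5 became 2 without that array. Blood markers moved with stage too. The linear signal of 4 erythroid genes summed to 2195 to 5677 in closed E9.5 and 4885 to 7162 in open E9.5 tissue. It was 703 to 823 in closed E8.5 and 131 to 688 in open E8.5 tissue. Gata1, 1 of these 4 genes, had a mean below the filter in all 4 groups. The part of blood markers in the values above was not tested.

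**Figure D4:**
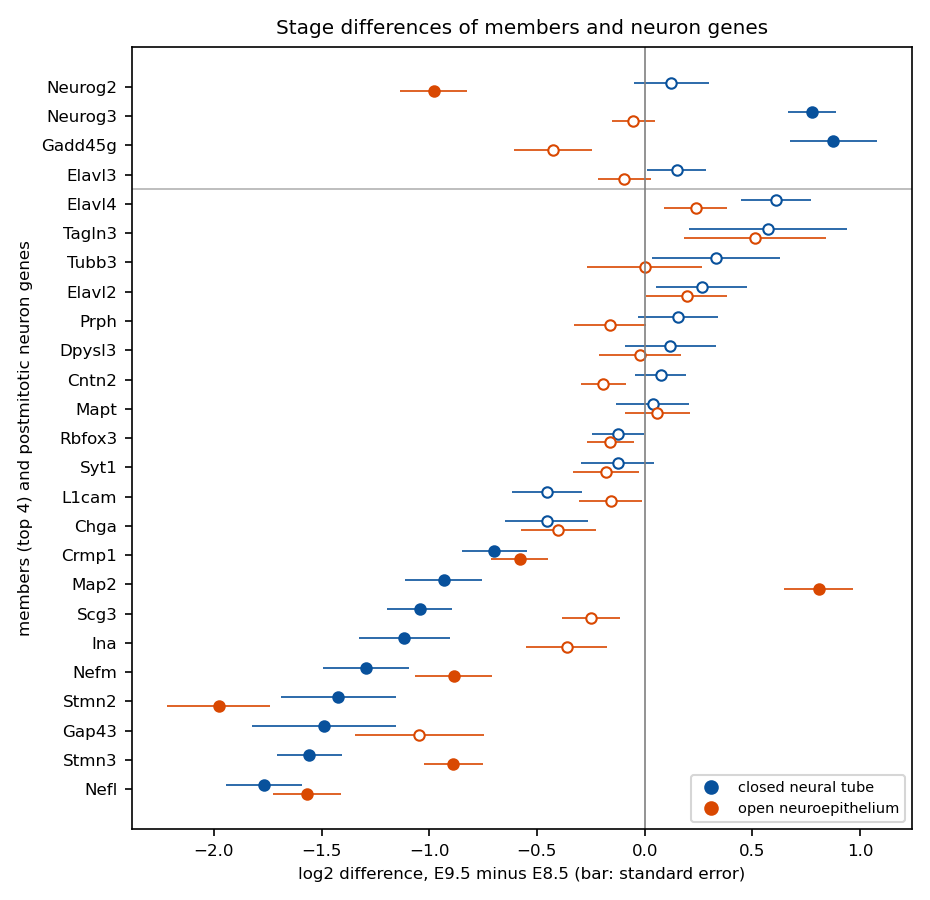
Differences of E9.5 minus E8.5 (log2, bar: SE) in closed neural tube and open neuroepithelium, for the 4 tested members (above the grey line) and 21 postmitotic neuron genes. Filled points passed the test. In closed tissue 2 members rose and 9 neuron genes fell, with Nefl at −1.77. Over all 13338 tested genes, 128 rose and 195 fell there. The Gadd45g rise was called in 7 of 26 alternatives.

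Among markers of spinal neuron types, some were lower in closed tissue. Of 23 genes 13 were tested, and at each stage 3 were lower in closed tissue and 0 were higher. With the replicate block 2 were also higher at E9.5, Isl1 (0.47, adjusted p = 0.047) and Pou4f1, a factor of sensory neurons and interneurons (0.73, adjusted p = 0.0309). The lower genes were Gad1, which makes the transmitter GABA (−4.32 at E9.5, SE 0.19, adjusted p = 1.04e-07), Evx1, a factor of interneurons that is also made in the caudal embryo (−4.14 at E9.5, SE 0.21, adjusted p = 2.53e-07), and Mnx1, of motor neurons and notochord (−2.25 at E9.5, adjusted p = 9.45e-05). The motor neuron genes Isl1, Isl2, Lhx3 and Chat did not pass the test in either region comparison (Isl1 at E9.5 had an adjusted p of 0.083 without the block), and Slc18a3, Slc17a6, Lhx1 and En1 were below the filter.

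Progenitor genes were high beside the proneural factors in closed tissue. Over all 13338 tested genes, 367 were higher in closed tissue at E9.5 and 506 at E8.5. Of 14 progenitor genes tested, 9 were higher in closed tissue at E9.5 and 8 at E8.5, with 0 lower at either. With the replicate block Fabp7 (−0.67, adjusted p = 0.00552) was lower at E9.5, beside 10 higher, and Hes1 (−0.49, adjusted p = 0.0259) was lower at E8.5, beside 8 higher. Without open E9.5 arrays 1 and 2, 5 of the 14 were higher at E9.5. Rfx4 was higher by 3.95 at E9.5 (SE 0.15, adjusted p = 7.04e-08) and Pax6, a factor of the ventral and intermediate tube that acts ahead of Neurog2, by 3.13 (adjusted p = 2.57e-07) at E9.5 and by 3.83 (SE 0.18, adjusted p = 2.08e-07) at E8.5. In closed tissue Pax6 fell by 1.27 between the stages (SE 0.18, adjusted p = 0.00257), at 9.30, 9.10 and 9.42 in closed E9.5 and 10.39 and 10.70 in closed E8.5 tissue. Over the same arrays the Neurog2 difference was 0.12, given above.

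Patterns over the 11 arrays were most alike, among the tested genes, for Neurog2 with Ndnf (Pearson r = 0.987), Rfx4 (0.985) and Meis2 (0.982), for Neurog3 with Miat (0.974), Srgap3 (0.960) and Pou3f3 (0.957), for Gadd45g with Ankrd6 (0.976), Nr2f2 (0.976) and Fam181a (0.961), and for Elavl3 with Cdh22 (0.919), Cdh6 (0.907) and Dram1 (0.907). Between the 4 members r was 0.813 to 0.908. The arrays share their groups, so these values describe the group pattern and carry no test. Ndnf, for one, averaged 9.40 in closed E9.5, 5.92 in open E9.5, 9.27 in closed E8.5 and 7.46 in open E8.5 tissue. This was the order of Neurog2, whose closed groups did not differ beyond their spread.

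Neural crest and sensory neurons also make neurogenins and neuronal genes, and some of their markers moved with region. The linear signal of the 5 measured of 8 such markers summed to 1185 to 1342 in closed E9.5 tissue and 184 to 289 in open E9.5 tissue, and to 1142 to 1202 in closed E8.5 tissue and 209 to 254 in open E8.5 tissue. Ednrb (4.81 at E9.5, SE 0.21, adjusted p = 1.04e-07) and Foxd3 (2.16, SE 0.43, adjusted p = 0.00763) were higher in closed tissue, and 0 of the 5 had a mean below the filter in any group. At each stage 2 of the 5 were called and 3 were not, while 4 were called at E9.5 with the replicate block. Sums of 6 endoderm markers were 465 to 574 in closed E9.5 and 546 to 675 in open E9.5 tissue, with Cdh1 and Sox17 below the filter in both, and 527 to 631 in closed E8.5 and 695 to 951 in open E8.5 tissue, where the regions did not overlap. Those of 6 surface ectoderm markers were 645 to 913 in closed E9.5 and 671 to 842 in open E9.5 tissue, and 574 to 754 in closed E8.5 and 1029 to 1433 in open E8.5 tissue, again apart at E8.5. Sums of the 3 measured of 5 notochord markers were 2241 to 2738 in closed E9.5 and 1430 to 1752 in open E9.5 tissue, and 1334 to 1649 in closed E8.5 and 2051 to 2580 in open E8.5 tissue. The notochord sums were thus higher in closed tissue at E9.5 and lower at E8.5. In closed tissue they were higher at E9.5 than at E8.5, as Neurog3 was, and Gadd45g in a call kept in 7 of 26 alternatives. The notochord genes measured were Shh, Foxa2 and Chrd, without T and Noto, and Foxa2 counts in the endoderm sums too. The sums cannot tell notochord from other cells that make these genes. The part of these cell types in the values of the 7 genes was not tested.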

How the data were processed

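Per the labels' protocols, 50 ng of RNA per sample was amplified, labelled with biotin and hybridized to Affymetrix whole-genome mouse arrays, 12 in all, 1 of which the authors left out. The deposited values are log2 signal of 45101 probe sets, from 2.37 to 14.72. Per the submitters' processing notes MAS5 was used, with no role or version, so how the deposited log2 values were background-corrected and normalized stays unknown, and no detection calls were used here. The number of arrays limits the precision.

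Stage and region were read from the sample titles. For the closed arrays, the table of groups made for this work holds the region alone, so the stage came from the title quoted in it. Probe sets were named through the platform annotation (34945 with 1 symbol, 932 with several), of which 34741 matched RefSeq genes by Entrez ID and 0 changed symbol. The probe set with the highest mean stood for its gene, and the filter was the 40th percentile (4.30). Group means were fitted with limma 3.58.1 in R 4.3.3 (eBayes with an intensity trend, residual degrees of freedom 7, median prior 4.40), with Benjamini-Hochberg adjustment over 13338 genes. The fit was tested on simulated data.

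Named genes were the 7 members, 12 relatives and partners, the 2 called genes of smallest p for each list, comparison and direction (not all are printed), and the 3 genes most alike each tested member. The members, the gene lists and the tests were chosen with earlier results of these data known. Further genes of the lists, given as values or as below the filter, were picked after their values were seen. Cell-type sums add 2 to the power of the log2 values.

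Replicate numbers were taken to pair the regions: deviations from the group means correlated at 0.308, 0.341 and 0.687 between same-numbered arrays at E9.5 and at 0.576 and 0.697 at E8.5, across genes, which are not independent. Pairs of different number reached 0.317 at E9.5 and 0.309 at E8.5. The closed E8.5 arrays deviate from their mean as mirror images, so an open E8.5 array gives values of equal size and opposite sign with them. These correlations cannot tell pairing from RNA quality that arrays share, which was not tested, and the blocked values of the regions rest on this pairing. The labels do not say whether regions share litters, or whether a replicate number links arrays of different stages. For the stage comparisons the fixed block was the replicate number shared across both stages. The random block, and the fixed block of the region comparisons, stayed within each stage.

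Alternatives were array weights, robust variances, eBayes with no intensity trend, quantile normalization, centring of arrays on the median, a stricter filter (60th percentile, 5.65) or none, probe sets averaged per gene or taken one by one with and without the filter, only the groups compared, the replicate number as a fixed or a random block, a limit of 1 on the absolute difference, a covariate of 3-prime over 5-prime signal, open E9.5 arrays 1 and 2 both left out, and each array left out in turn. A lone array left in a group was assumed to have the spread of the others. Probe sets one by one without the filter were added after the data were seen.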

Additional observations from a re-analysis of the deposited data

Results flagged for a closer look

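The difference of closed minus open tissue changed between the stages, by the interaction term of the limma fit, for 3 of the 4 tested genes (0.3% of all tested genes were called in this direction and 1.25% in either): by 1.10 for Neurog2 (2.78 at E9.5, 1.68 at E8.5), by 0.83 for Neurog3 (1.21 at E9.5, 0.39 at E8.5) and by 1.30 for Gadd45g (1.95 at E9.5, 0.65 at E8.5). In each case the difference was larger at E9.5. All 3 calls were lost when open E8.5 array 1, 2 or 3, open E9.5 array 2, or closed E9.5 array 1 or 2 was left out, and also without open E9.5 arrays 1 and 2 together (adjusted p 0.199 for Neurog2, 0.125 for Neurog3 and 0.323 for Gadd45g).

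Among the listed genes the same term was called for 6 others. It was −1.74 for Map2 (adjusted p = 0.00408), −1.92 for Sox1 (adjusted p = 0.00191) and −1.82 for Fabp7 (adjusted p = 0.0371), and it was 1.38 for Rfx4 (adjusted p = 0.0137), 1.36 for Pou3f3 (adjusted p = 0.0378) and 1.63 for Shh (adjusted p = 0.00168). Leaving out single arrays ended the call of Fabp7 in 8 of 11 fits (adjusted p up to 0.157) and that of Pou3f3 in 8 of 11 (adjusted p up to 0.127), and ended none of those of Map2, Sox1, Rfx4 and Shh.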

How the results depend on the processing

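No difference of a member that was called changed sign in any alternative. The 4 members called between the regions at E9.5 were 1 with the filter at the 60th percentile, where Neurog2 alone was tested, 2 with the mean of all probe sets, and 3 to 4 with single arrays left out. At E8.5 the 1 called became 2 with quantile normalization, arrays centred on their median, probe sets one by one without the filter, or the 3-prime to 5-prime covariate, 3 with the replicate block as a random effect, and 1 to 2 with single arrays left out. Between the stages in closed tissue the 2 called became 1 with centred arrays, the mean of all probe sets, probe sets one by one, no intensity trend, array weights, the replicate block, the random block, or open E9.5 arrays 1 and 2 left out, became 0 with the 60th percentile filter, only the groups compared or the size limit, and were 1 to 2 with single arrays left out. In open tissue the 1 called became 2 with array weights and 0 with the size limit or both open E9.5 arrays left out. For the interaction the 3 called became 1 with probe sets one by one, 0 with the 60th percentile filter, probe sets one by one without the filter or both open E9.5 arrays left out, and 0 to 2 with single arrays left out. With quantile normalization 2 interactions stayed called, without Neurog2 (adjusted p = 0.0594). With arrays centred on their median 2 stayed called, without Gadd45g (adjusted p = 0.0668). The interaction uses all groups, so that a fit of only the groups compared was not run.

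Over all genes, the 1139 calls between the regions at E9.5 became 3424 with array weights, 2221 with the replicate block, 2333 with the random block, 1764 with the 3-prime to 5-prime covariate, 454 with the size limit and 603 without both open E9.5 arrays. At E8.5, 957 became 1516 with the random block, 1519 with the covariate and 484 with the size limit. In closed tissue 323 became 215 with array weights, 150 with only the groups compared, 730 with the covariate, 161 with the size limit, 210 without closed E8.5 array 2 and 174 without closed E9.5 array 2. In open tissue 670 became 4301 with array weights, 219 with the size limit and 182 without both open E9.5 arrays, and 367 to 1262 with single arrays left out. The 167 interactions became 452 with the replicate block, 492 with the random block, 297 with the covariate and 72 without both open E9.5 arrays, and were as few as 84 with single arrays left out. The causes were not tested, apart from the smaller number of arrays or genes that an alternative itself sets. Apart from the blocked values given in the report, the replicate block changed no call of a member, with 4 called at E9.5, 1 at E8.5 and 3 interactions. The background limits the genes near 4.30, whose sizes depend on it.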
